A study of Rattus norvegicus with 4 samples.

Results

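Weak regions called at both stages are stretches of open chromatin that ATAC-seq found in every library of rat retinal ganglion cells (RGCs), before and after birth, and always in the lower part of the list. There were 5427 of them among 224715 merged regions (2.42%) on the 20 numbered chromosomes. Their members were chosen by measured values. Each open chromatin region (OCR) got a percentile, 0 for the lowest and 100 for the highest −log10 q value of its list, and OCRs of the 4 libraries that overlapped by at least 1 bp were merged into a region, which took its best percentile in each library. A region was a member if it was called in all 4 libraries, lay below the 50th percentile in every one, and had stage mean percentiles less than 25 points apart. The ranks, and the fold values and pileups that come from the same signal, are therefore a description of what was chosen and were not tested.

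RGCs were isolated from Sprague Dawley rats on embryonic day 21 (E21) or on day 11 after birth (P11) by immunopanning, with removal of cells that bound an anti-macrophage antibody followed by capture on anti-Thy1. Per the labels 300000 cells were frozen for each sample, with no other treatment or genetic change named. Each stage had 2 libraries, each stated to come from a separate litter, so the cells of a library were pooled from several animals. Markers of RGCs and of other retinal cells could not be checked, because no annotation of the build of the lists (rn6) was used here, and for the same reason no region was assigned to a gene and no sequence is shown. Positions are on rn6.

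In ATAC-seq a transposase cuts accessible DNA and leaves sequencing adapters there, so that promoters, enhancers and insulators, which are held free of nucleosomes by bound factors, collect many cuts. A bulk library averages over all its cells. A site that is open in few of the cells and a site that is slightly open in all of them then give the same low signal and cannot be told apart. RGCs send their axons to the brain before birth and lose much of their capacity for axon growth soon afterwards, and the ages sampled lie on either side of that change.

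The lists held 123707 OCRs in E21 replicate 1, 151816 in E21 replicate 2, 152301 in P11 replicate 1 and 163714 in P11 replicate 2. The genome-wide background, which rises with depth and was solved from the deposited values, lay between 4.17 and 5.03 fragments over a position. E21 replicate 1 had the shortest list although its background of 4.80 fragments was the second highest.

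Of the merged regions, 81097 (36.1%) were called in all 4 libraries, and the members were 6.69% of these (95% Wilson interval 6.52 to 6.87, which like every interval here covers counting error only). A further 534 regions lay below the 50th percentile in every library but had stage means at least 25 points apart, 279 of them higher at P11 and 255 higher at E21. For comparison, 39983 regions (49.3%) were strong and unchanged, meaning at or above the 50th percentile in every library and less than 25 points apart. The bin holding the most regions called in all libraries was the top corner of the plot of stage mean ranks, and the members occupied a thinner area at the opposite end of the diagonal.

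**Figure D1:**
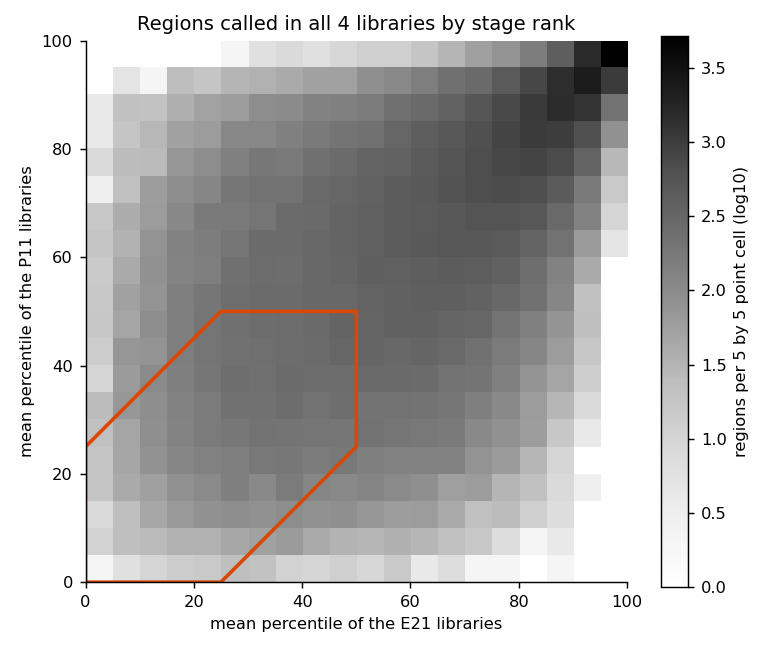
Mean percentile of each region called in all 4 libraries at E21 (x axis) and at P11 (y axis), with the number of regions per cell of 5 by 5 points as a grey scale on a log10 axis. The orange outline bounds the area in which the 5427 members lie, though regions inside it with 50 or more in a single library were not members.

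The members sat at different depths of the 4 lists. Their median percentile was 22.9 in E21 replicate 1, 32.8 in E21 replicate 2, 27.6 in P11 replicate 1 and 28.5 in P11 replicate 2. The E21 replicates thus lay further apart than the P11 replicates, and the stage means of 27.9 ± 7.05 and 28.0 ± 0.594 (SD, n = 2 libraries each) were nearly equal. The median −log10 q value of a member was 8.07 and 10.0 for the E21 pair and 6.71 and 7.22 for the P11 pair, against an authors' limit of 2 on that scale (q = 0.01). Most members were therefore well inside the limit of the caller and weak only by comparison with the rest of the list.

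The deposited fold enrichment at the summit says how far the signal rose above the local background. Its median over the members was 3.96 in E21 replicate 1, 4.31 in E21 replicate 2, 3.77 in P11 replicate 1 and 3.89 in P11 replicate 2. In the same libraries the strong unchanged regions had medians of 10.5, 10.8, 7.62 and 8.13. The distance between weak and strong regions was thus wider in the E21 libraries than in the P11 libraries. Solved from fold and p value, the summit of a median member was covered by 25 fragments in E21 replicate 1, by 30 in E21 replicate 2 and by 23 in each P11 library. Divided by the genome-wide background, to set libraries of different depth side by side, the E21 medians were 5.20 and 5.96 and the P11 medians 5.35 and 5.52. The stage means of this scaled pileup were 5.58 ± 0.533 and 5.43 ± 0.120 (SD, n = 2 each). Region by region, the P11 value was lower than the E21 value by a median of 0.04 on the log2 scale (−0.04, quartiles −0.23 and 0.17). Scaled pileups lay within 1.5-fold between the stage means in 5241 members (96.6%). The limits of the rule hold these pileups close, no share over other regions stands beside this count, and nothing is read from it.

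**Figure D2:**
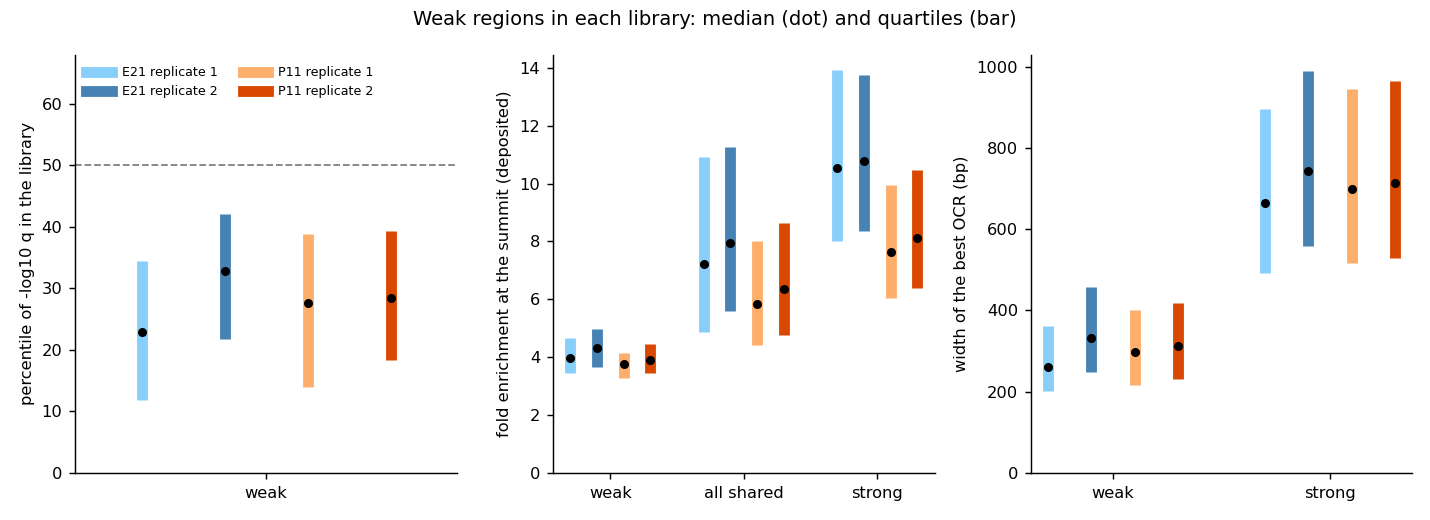
Percentile, deposited fold enrichment at the summit and width in bp of the best OCR of each region, as the median (dot) and quartiles (bar) over regions in each of the 4 libraries, for the members (weak), all regions called in all libraries and the strong unchanged regions. Median fold of the members lies between 3.77 and 4.31 in every library, and the dashed line is the 50th percentile limit of the rule.

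The deposited fold of the members was slightly lower at P11, with a median log2 difference of −0.12 (quartiles −0.28 and 0.04). Over all regions called in every library it was −0.30, and over strong unchanged regions −0.39, so a lower fold at P11 was common to the lists. Both P11 libraries had a higher fold than both E21 libraries in 459 members (8.46%), where the background over all regions called in all libraries was 12.6%. Both E21 libraries were higher in 1790 members (33.0%), against 54.9%. By percentile, both P11 libraries were above both E21 libraries in 948 members (17.5%) and below in 882 (16.3%), where the background was 33% and 26.8%. These counts rest on the ranks that chose the members, and nothing is read from them.

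Closeness between stage means did not mean that the 4 libraries gave the same rank. The range of a member's percentile over the 4 libraries had a median of 26.7 points, and it was under 10 points in only 254 members (4.68%). The 2 E21 libraries differed by a median of 12.8 points and the 2 P11 libraries by 12.6, against 9.32 points between the stage means, which average 2 libraries each. The rule held stage means less than 25 points apart and set no such limit between replicates. The lower value between stages is therefore not read as a result. Below the 25th percentile in every library lay 298 members (5.49%), and between the 25th and the 50th in every library 747 (13.8%). The others moved between these ranges from library to library. Spearman's rho of percentile over the 5427 members was 0.202 between the E21 libraries, 0.0807 between the P11 libraries and 0.132 to 0.152 across stages. Over all regions called in every library the same values were 0.906, 0.858 and 0.634 to 0.667. Over strong unchanged regions, chosen by the 50th percentile from above and the same 25 points, they were 0.900, 0.860 and 0.692 to 0.725. The rule limits the range of percentile among the members, and the part of this in their rho was not tested. These coefficients describe regions of shared libraries and have no p.

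The members with the steadiest ranks show what such a region looks like in the lists. The smallest range of all, 1.70 points, belonged to chr9:90690977-90691400, a region of 424 bp. Its percentile was 33.2 in E21 replicate 1, 34.7 in E21 replicate 2, 34.5 in P11 replicate 1 and 33.0 in P11 replicate 2. Its summit was covered by 27, 28, 22 and 22 fragments in that order, and its deposited fold was 4.82, 4.81, 4.34 and 4.45. Both counts and folds were thus higher at E21 with no overlap between stages, while the ranks did overlap. The 4 OCRs of this region had 345 bp in common. Next came chr4:96327296-96327501, a compact region of 206 bp, with percentiles of 44.6 and 45.3 at E21 and 46.4 and 44.7 at P11, and with 32, 33, 25 and 25 fragments at its summit. The third, chr12:7630166-7630446, had percentiles of 44.1 and 44.1 at E21 and 44.0 and 45.7 at P11. It lay on a raised local background, 6.57 and 9.14 fragments at E21 and 5.79 and 7.22 at P11, each above the genome-wide value of its library.

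The lowest mean percentile, 2.78, was that of chr10:38404614-38404982. This region of 369 bp ranked at 1.51 and 5.14 before birth and at 3.85 and 0.644 after it, with 19, 22, 18 and 17 fragments at its summit. It was therefore close to the bottom of all 4 lists and called in each. At chr7:27281334-27281809 the E21 libraries ranked it at 5.82 and 2.03 and the P11 libraries at 1.43 and 3.03. At chr3:111154237-111154659 the values of 2.27 and 2.03 at E21 lay below those of 6.40 and 6.83 at P11, so that here the stages did not overlap although all values were low.

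At the upper end, chr16:1767701-1768686 had a mean percentile of 48.3, with 49.1 and 49.4 at E21 and 45.4 and 49.5 at P11. This region of 986 bp had far more fragments at its summit than most members, 54 and 62 at E21 and 44 and 46 at P11. Its local background was as much raised, 12.2 and 15.7 fragments at E21 and 12.6 and 12.2 at P11, and its fold of 4.17, 3.77, 3.30 and 3.55 was ordinary for a member. By contrast chr3:9560025-9560358, with a mean percentile of 48.2, reached its rank from 33 and 35 fragments at E21 and 26 at each P11 library, on the genome-wide background. The third, chr12:43871105-43871611, had a mean percentile of 47.9 and 35, 34, 26 and 25 fragments. Nearly the same rank was thus reached from different pileups on different backgrounds.

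Solved from the fold and p values behind the ranks, local background describes what was chosen, and its contrasts between kinds of region were not tested. It was raised in fewer of the members than of the strong regions. It was more than 2 times the genome-wide value in at least 1 library in 967 members (17.8%) and in every library in 350 (6.45%), and in 4460 (82.2%) it was so in none. Over all regions called in every library, 36.7% had such a background in at least 1 library, and 52.2% of the strong unchanged regions did, where 3369 strong regions could not be solved in every library and count only by the libraries that could. In the 350, the summit of the median member held 47 and 56 fragments at E21 and 42 at each P11 library, and the median fold was 2.98, 2.98, 2.78 and 2.83. In the 4460 the medians were 24 and 29 fragments at E21 and 22 at each P11 library, with folds of 4.14, 4.47, 3.90 and 4.06. A member could thus be weak with few fragments on a plain background or with many on a high one. MACS2 takes the local background from the windows around an OCR, so neighbouring OCRs can raise it. In 1 member the background was more than 10 times the genome-wide value in every library.

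At the limits of the rule the members passed into their neighbours without a gap. Just inside the 50th percentile lay chr1:255690940-255691197, with percentiles of 20.7 and 45.3 at E21 and 22.9 and 49.997 at P11, and chr5:101181545-101182009, whose highest value was 49.987 in P11 replicate 2. Just outside lay chr20:48613413-48613966 and chr9:80601754-80602218, which reached 50.003 and 50.021 in P11 replicate 2. On the limit of 25 points, chr11:17214065-17214443 was inside at −24.995 points (P11 minus E21), with percentiles of 24.1 and 41.4 at E21 and 2.17 and 13.4 at P11, and chr13:98566072-98566466 was inside at 24.995 points. Outside lay chr1:268508963-268509413 at 25.009 points and chr2:212413728-212414354 at −25.011 points. In each of these the libraries of a stage differed from each other by more than the region's distance to the limit, so which side of a limit a region fell on rested on single libraries.

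The members were narrower than strong regions and wider than the typical merged region. A region spans the OCRs of every library that called it, so regions called in fewer libraries tend to be narrower. The part of this in the width of the members was not tested. The median region was 473 bp wide (quartiles 370 and 619), against 863 bp for strong unchanged regions, 709 bp for all regions called in every library, 421 bp for all merged regions, 347 bp for E21-only regions, called in both E21 libraries and in no P11 library, and 414 bp for P11-only regions, called the other way round. The best OCR of a member had a median width of 261 bp in E21 replicate 1, 331 bp in E21 replicate 2, 297 bp in P11 replicate 1 and 313 bp in P11 replicate 2, where strong regions had 665, 742, 699 and 713 bp. Averaged by stage, the members measured 296 ± 49.5 bp before birth and 305 ± 11.3 bp after it (SD, n = 2 each), a difference smaller than the spread of the E21 libraries (exact permutation test over libraries, two-sided, p = 1). With 2 libraries against 2 this test cannot give a p below 0.333.

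A single OCR per library was usual, in 5060 members (93.2%). More than 1 OCR was merged into 1.92% and 1.84% of the members in the E21 pair and into 2.60% and 2.63% in the P11 pair. The stage means were 1.88 ± 0.0521% and 2.62 ± 0.0261% (SD, n = 2 each), with no overlap between stages (exact permutation test, two-sided, p = 0.333). Both P11 lists were longer than both E21 lists, and the part of this in the difference was not tested. Widths of 1 kb or more were found in 190 members (3.50%) and of 2 kb or more in 3. The shares in this paragraph were not set beside those of other regions and are not read as particular to the members. The widest member, chr15:48831037-48833447, spanned 2411 bp. It had percentiles of 43.9 and 49.7 at E21 and 9.06 and 37.2 at P11, and its 4 best OCRs had no base pair in common, although E21 replicate 2 called a single OCR of 2189 bp there. The second, chr8:73336680-73339089 of 2410 bp, held 1 OCR in E21 replicate 1, 3 in E21 replicate 2, 3 in P11 replicate 1 and 4 in P11 replicate 2. The third, chr14:94346125-94348184, was 2060 bp wide and held 2 OCRs in each E21 library and 3 in each P11 library.

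In most members the best OCRs of the 4 libraries nevertheless overlapped in part. The best OCRs of all 4 libraries had at least 1 bp in common in 4949 members (91.2%), with a median of 162 bp, or 38.8% of the width of the region. In strong unchanged regions 99.2% had such a core, with a median of 553 bp or 69.3% of the width. In the remaining 478 members (8.81%) the 4 best OCRs had no base pair common to all, and other OCRs of these members were not compared. With a single OCR per library and 50% reciprocal overlap in each pair of libraries, 2097 members were left.

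The summit, the base with the highest pileup, was not used by the rule. Between the E21 libraries the summits of a member lay a median of 43 bp apart, between the P11 libraries 69 bp, and across stages 65 to 71 bp. In strong unchanged regions the medians were 13 bp, 25 bp and 27 to 32 bp. Summits of weak regions were thus more scattered than those of strong ones in each of the 6 pairs of libraries. The same-stage mean was 56 ± 18.4 bp (SD, 2 pairs) and the cross-stage mean 68 ± 2.58 bp (SD, 4 pairs), a difference smaller than the spread of the same-stage pairs (exact permutation test over libraries, two-sided, p = 0.333). The P11 pair was as far apart as the pairs across stages. Summits within 50 bp of each other were found in 54.3% of members between the E21 libraries, in 40.6% between the P11 libraries and in 39.9% to 42.3% across stages. With 23 to 30 fragments over a summit, its position is itself imprecise, and the part of this in the scatter was not tested.

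**Figure D3:**
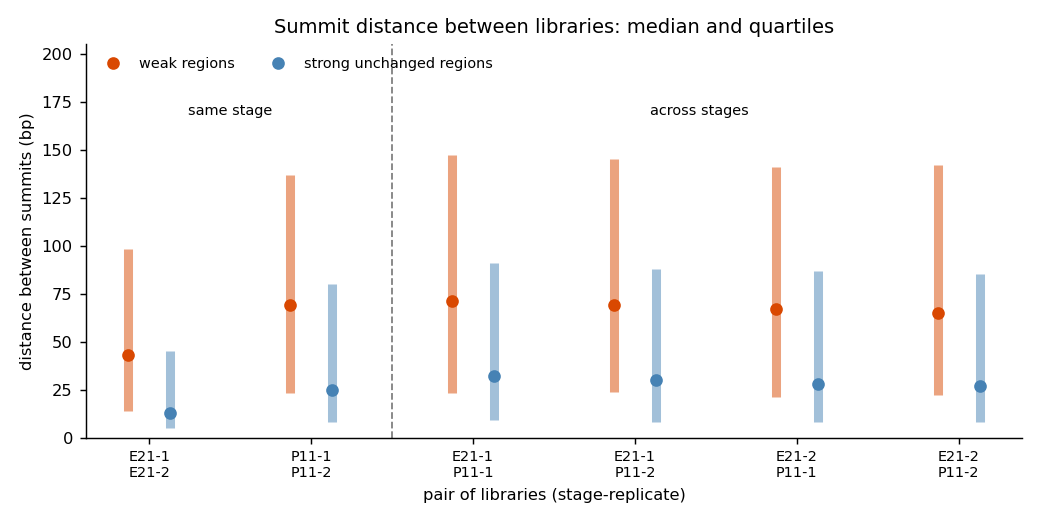
Distance in bp between the summits of a region in 2 libraries, as the median (dot) and quartiles (bar) over regions, for each of the 6 pairs of libraries. Orange marks the members and blue the strong unchanged regions, and the members lie higher in every pair, at medians of 43 to 71 bp against 13 to 32 bp.

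How unusual it was for a weak OCR to be seen in every library depended on the library. Among OCRs below the 50th percentile, 47.8% in E21 replicate 1 lay in a region called in all 4 libraries, against 25.7% in E21 replicate 2, 32.3% in P11 replicate 1 and 26.9% in P11 replicate 2. The shortest list thus had the highest share. Members held 8.88%, 7.29%, 7.24% and 6.81% of the weak OCRs in that order. Below the 10th percentile, 35.9% of the OCRs of E21 replicate 1 and 11.3% of those of E21 replicate 2 were in a region called in all 4 libraries, and the P11 libraries lay between at 19.6% and 14.8%. From the 90th percentile up the shares were 97.7% to 99.9%.

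**Figure D4:**
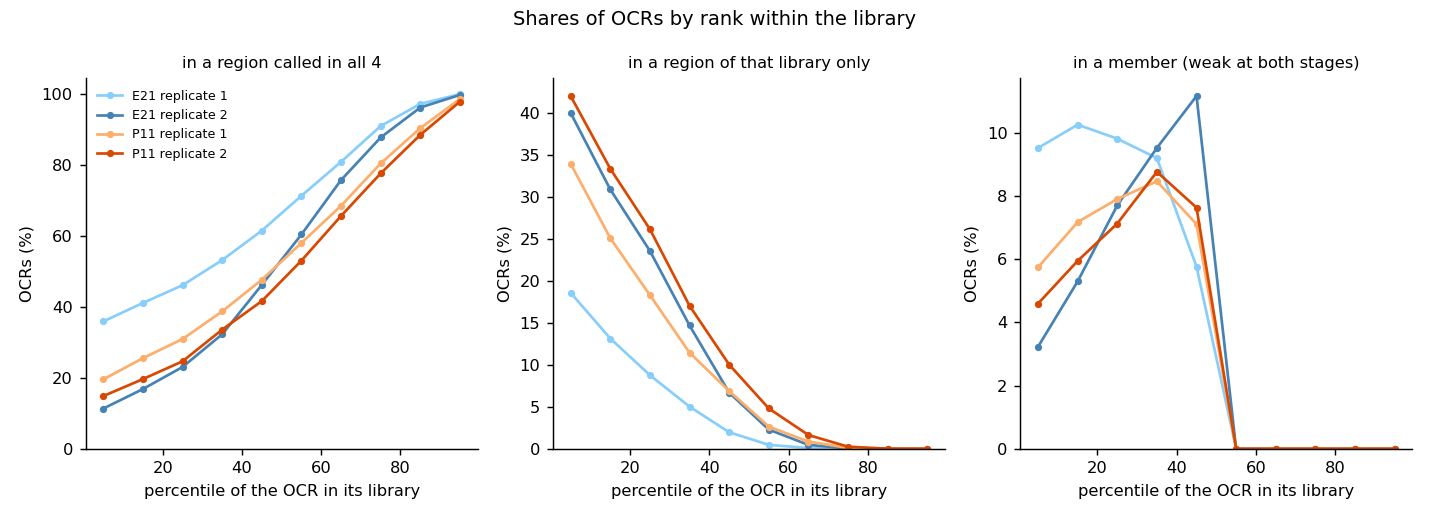
Share of the OCRs of each library, in percent, by rank (x axis, percentile within the library in bins of 10 points), that lay in a region called in all 4 libraries (left), in a region of that library alone (middle) and in a member (right). The share called in all 4 rises with rank in every library, from 11.3% to 35.9% in the lowest bin to 97.7% to 99.9% in the highest.

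Averaged over both directions of a pair, a weak OCR was found again more often within its stage than across stages. The same-stage pairs gave 65.8 ± 1.97% (SD, 2 pairs) and the cross-stage pairs 48.8 ± 1.15% (SD, 4 pairs). The difference was larger than these spreads, though the pairs share libraries (two-sided exact permutation test over libraries, p = 0.333, the smallest it can give). Single directions ranged widely. E21 replicate 2 had a call at 84.2% of the weak OCRs of E21 replicate 1, and in the opposite direction only 50.1%. The weak OCRs of E21 replicate 2 were found more often across stages in P11 replicate 2 (52.5%), and in P11 replicate 1 in 48.3%. For the weak OCRs of each other library the same-stage share was the highest.

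Seen from 1 stage, being weak at both was a minor outcome. Of 33442 regions called below the 50th percentile in both E21 libraries, 33.5% were called in neither P11 library, 19.4% in 1, and 17.8% (5961) were weak in both, while 16.7% had 50 or more in both. Of 36062 regions weak in both P11 libraries, 44.0% were called in neither E21 library, 18.1% in 1, 16.5% were weak in both and 11.5% strong in both. Of 57017 regions strong in both E21 libraries, 4.09% were called in neither P11 library and 72.0% were strong in both. These shares compare different litters at different ages and do not follow a region over time.

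**Figure D5:**
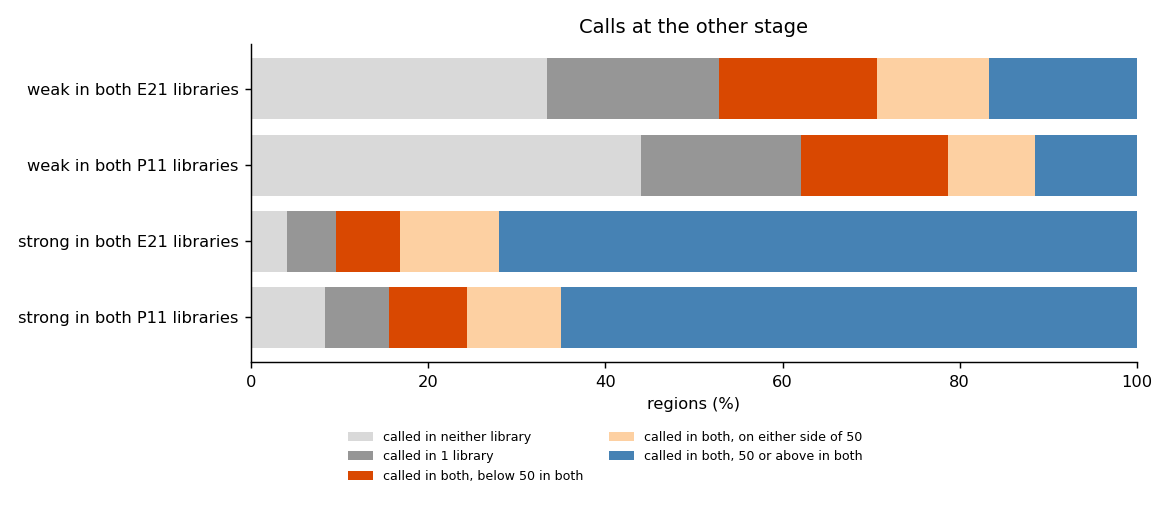
Regions that both libraries of a stage called below (weak) or not below (strong) the 50th percentile, divided by their calls at the other stage, in percent of each bar. Orange, weak in both libraries of the other stage, takes 17.8% of the regions weak at E21 and 16.5% of those weak at P11.

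Whether a weak call recurs can be measured in a library that had no part in the choice. Regions were built from and chosen on any 3 libraries by the same limits, and then looked for in the fourth. E21 replicate 1 had 55.9% of 9978 such regions, E21 replicate 2 had 90.3% of 8338, P11 replicate 1 had 68.1% of 9509 and P11 replicate 2 had 78.5% of 9059. Of all regions called in the other 3 libraries the same libraries had 86.1%, 97.4%, 91.1% and 94.4%, and of the strong and close ones at least 99.1%. Weak regions were thus missed more often in each of the 4 libraries. Where the left-out library had the region, it lay below the 50th percentile there in 90.6%, 65.4%, 77.2% and 69.7%. Over all regions called in the other 3 libraries these shares were 33.9%, 21.8%, 27.2% and 23.7%. Leaving out 1 library raised the number of members by more than 1.5 times whichever it was, to between 8338 and 9978, the highest without E21 replicate 1. Which regions qualified also rested on the length of the lists. With the lists cut to the 123707 OCRs of the shortest, 5032 regions qualified, and only 1891 of the 5427 members (34.8%) overlapped one of these.

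The members lay closer to other open chromatin than strong regions did, as P11-only regions also did. The nearest other region of any kind was a median of 1670 bp away (95% binomial interval of the median 1586 to 1754), against 2943 bp for strong unchanged regions, 2356 bp for all regions called in every library, 2142 bp for all merged regions, 1949 bp for P11-only and 2694.5 bp for E21-only regions. Within 1 kb of another region lay 1990 members (36.7%, Wilson interval 35.4 to 38.0), against 27.0% of strong unchanged regions, 29.9% of all called in every library, 32.9% of P11-only and 26.3% of E21-only regions. More than 20 kb from any other lay 133 members (2.45%), against 2.84% of P11-only regions. Members were closer than strong regions and than all shared regions also where only OCRs with −log10 q of 5 or more were used, with equal numbers of OCRs per library, with ranks taken by fold, and without each library in turn, at medians of 1023 to 2163 bp against 2332 to 3148 bp for all shared regions. A split by local background kept the 82.2% of members and 46.5% of strong regions with at most 2 times the genome-wide value in every library. Their medians were 2028 and 3869 bp, and that of all shared regions so chosen was 2956 bp. The split left out 3371 shared regions, 3369 of them strong, whose p value was too small to be solved in at least 1 library. Neighbouring OCRs can raise the local background, so the split also chooses by distance and adds no separate support for the order. Local background also enters the fold and q values used for ranking, so the alternatives above add no separate support either. The part of this in the distances was not tested. Distances were measured from edge to edge.

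The nearest strong unchanged region lay a median of 14383 bp from a member (95% binomial interval of the median 13604 to 14923). For strong unchanged regions the distance to the next of their kind was 14982 bp, for P11-only regions 14995 bp and for E21-only regions 19884.5 bp. It was 15110 bp for all regions called in every library (interval 14956 to 15298) and 16007 bp for all merged regions (15905 to 16119). The members' interval lay below both of these. It overlapped those of strong unchanged (14768 to 15214) and P11-only regions (14729 to 15271). Without E21 replicate 2, though not in the other settings, members lay further off than all shared regions, at 15265.5 against 15152 bp. The members' value also moved with the local background. It was 3396 bp for the 967 members on a raised background and 17536.5 bp for the 4460 others. Over all regions called in every library these values were 8875 and 19572.5 bp, and over strong unchanged regions 11236 and 20032 bp, where solved. Nearby OCRs can themselves raise the local background. Within 2 kb of a strong region lay 571 members (10.5%), against 7.67% of strong regions themselves, 8.37% of all called in every library and 10.2% of P11-only regions (Wilson interval 9.84 to 10.5), which overlaps that of the members (9.73 to 11.4). By kind, the nearest region of a member was one called in a single library in 25.8%, in 3 libraries in 13.7%, strong and unchanged in 16.4%, P11-only in 10.7% and E21-only in 7.96%. Over all regions called in every library these shares were 27.0%, 12.7%, 17.8%, 12.6% and 6.98%. It was another member in 176 cases (3.24%, against 2.64%).

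Within a library, the OCRs of members can be set against other weak OCRs of the same rank. Weighted to the members' percentiles in bins of 5 points, other weak OCRs were narrower in all 4 libraries, by 15 and 47 bp at E21 and by 23 and 34 bp at P11 (mean 29.8 ± 13.9 bp, SD over 4 libraries). The next OCR of the same library was nearer to an OCR of a member, with differences (members minus others) of −663 and −542 bp at E21 and −190 and −129 bp at P11 (mean −381 ± 262 bp, SD over 4 libraries). Both differences had the same direction in 4 of 4 libraries (exact sign-flip permutation test over libraries, two-sided, p = 0.125 each, the smallest it can give). The members are the same regions in every library, so the 4 differences are not independent and the test cannot treat them as separate sets. A wider OCR has more chances to meet one of another library, and its part in the choice of members was not tested.

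The members were spread over all 20 numbered chromosomes. Their share of the regions called in every library ran from 5.80% on chromosome 13 (Wilson interval 5.04 to 6.67) to 7.52% on chromosome 19 (6.51 to 8.67). In windows of 1 Mb the share was 6.90% where a window held up to 20 regions called in every library, 6.60% at 21 to 40, 6.71% at 41 to 80 and 6.44% above 80, with overlapping intervals throughout. Members thus followed the density of shared open chromatin. Of 2610 windows, 627 held no member, 604 held 1, 1075 held 2 to 4, 293 held 5 to 9 and 11 held 10 or more.

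The window with the most members was on chromosome 16, from 46000001 to 47000000, with 13 members among 67 regions called in every library and 189 merged regions. Its members differed in strength, from a mean percentile of 12.4 at chr16:46684283-46685260 to 43.1 at chr16:46837582-46837995. The first had steady ranks, 12.0 and 14.4 at E21 and 11.9 and 11.5 at P11, although its 4 best OCRs had no base pair in common. The second had 47.1 and 46.0 at E21 and 47.9 and 31.4 at P11, on a local background of 10.4 to 12.4 fragments. Others in the window were unsteady, such as chr16:46495300-46495942, which ranked at 45.4 and 1.27 in the 2 E21 libraries. In the order of regions called in every library, the longest row of members without another kind between them had 5, on chromosome 19 from 26932381 to 27421876 over 489496 bp, with mean percentiles of 10.3 to 33.3. Counting all merged regions, the longest row had 3, and there were 7 of these, while 5118 members stood alone.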

How the data were processed

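Open chromatin was profiled by ATAC-seq in 4 libraries, 2 each at E21 and P11, grouped by their GEO titles. The authors used the ATAC-seq Integrative Analysis Package and MACS2 (versions not given in the sources used here) on rn6 (Rnor_6.0, per the submitters' processing notes) and called OCRs per library, without pooling. Per OCR the authors deposited a score (−log10 q times 10, rounded down), the fold enrichment at the summit, −log10 p and −log10 q values, and the summit. All are on the scale of their own library. The lists held no duplicate lines, and read totals were not used. Pileup and local background were solved from fold, (pileup + 1)/(background + 1), and the Poisson p value, which could be done for 97.4% to 99.8% of the OCRs of a library (the rest had p values too small) and for every member, and every solved pileup was whole within 0.02.

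Regions were built with Python 3.11.15, numpy 2.4.6, pandas 2.3.3 and scipy 1.17.1, and the code was tested on simulated lists. Members, lists and tests were chosen with earlier results of these data known. Tests were exact permutations over libraries, and no rank, fold value or pileup of the members was tested. The recurrence of weak OCRs, which was tested, uses the rank limit and the calls of the rule. The number of OCRs in a region, also tested, bears on its best percentile. Named regions are the 3 members with the smallest percentile range, the 3 with the lowest and the 3 with the highest mean percentile, the 3 widest, the 2 on either side of each limit, the 1 Mb window with the most members, of which 3 were picked for naming after their values were seen, and the longest row. Alternatives comprised other limits, ranking by fold, shorter lists, stricter overlap, X, a replicate block and each library left out. Left-out-library recurrence, comparison with weak OCRs of like rank and splits by local background were added after the data were seen. Distances to transcription start sites, gene lists, cell type markers and motifs had been planned but were not run, since a genome and annotation of rn6 were not used here.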

Additional observations from a re-analysis of the deposited data

Results flagged for a closer look

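The X chromosome was outside the numbered chromosomes used above. Ranked together with them, 100 of its 1328 regions called in all 4 libraries met the same rule (7.53%, 95% Wilson interval 6.23 to 9.08). They are listed because no comparison above used X. The interval includes the 6.69% of the numbered chromosomes. The sex of the animals was not used here.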

How the results depend on the processing

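Other limits moved the set itself. Below the 40th percentile in every library there were 2171 members (2.68% of the regions called in all 4 libraries), with a median distance to a strong unchanged region of 12012 bp, a cross-stage summit offset of 75.2 bp and more than 1 OCR in 1.72%. Below the 60th there were 10610 (13.1%), with 18439 bp, 62.8 bp and 2.93%. With stage means under 15 points apart the share was 4.94% and the distance 16541 bp. Ranking by deposited fold gave a share of 8.71%, 9610 bp, 63.8 bp and 3.42%. OCRs of −log10 q of at least 5 gave 6.31%, a median width of 504 bp, 15068 bp and an offset of 60.4 bp. Equal numbers of OCRs per library (123707) gave 7.22%, 531 bp, 17056 bp and 59.2 bp. A single OCR per library with 50% reciprocal overlap gave 2097 members (3.94%), 384 bp, 17126 bp and 51.2 bp, and by construction 0% with more than 1 OCR. Members whose best OCRs had a common base pair, added after the data were seen, gave 6.10%, 62.8 bp and 1.19%. Members without raised local background, also added then, gave 5.50% and 17536.5 bp. With X none of the 6 values moved beyond its spread.

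Without 1 library at a time the number of members was 8338 to 9978, the share 9.99% to 10.7%, the width 423 to 437 bp, the distance 11837 to 15265.5 bp, the offset 62 to 66 bp and the share with more than 1 OCR 1.52% to 1.72%. Only 3 libraries then had to be below the limit, which by itself admits more regions. Of the reported members, 3747 (69.0%) were also members when ranked by fold, 2766 (51.0%) with −log10 q of at least 5, and 1891 (34.8%) with equal numbers.

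With a replicate block, which asks that same-numbered libraries differ by less than 25 points in both pairs, 3629 members were left, a share of 4.47%, with a distance of 15111 bp. Deviations of same-numbered libraries from their stage means had r = 0.0272 over 81097 regions. Whether same-numbered libraries were processed together was not tested, and this correlation of ranks within lists cannot show it. The share near transcription start sites and its alternatives (1 kb, and limits of 40 and 60) were not run. Read totals were not used here, and with 2 libraries per stage no permutation test could pass 0.05.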
